A study of Mus musculus with 22 samples.

Results

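The 41 genes described here are transcripts that cells raise when they sense interferon. They were chosen by symbol from interferon biology, with no measured value in the rule, and all 41 were found among the 32544 gene symbols of both count tables. Earlier results of these data were known when the list was made. Of them 33 are targets of type I interferon, 7 are guanylate-binding protein (GBP) or immunity-related GTPase (IRG) genes best known as targets of interferon gamma, and the last, Irf1, is a transcription factor that both kinds of interferon induce.

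The study asked how mouse mammary cells and lung macrophages change each other when cultured together. RNA was sequenced in bulk from 22 libraries in 8 groups. In the early lesion experiment the groups were early lesion cells co-cultured with alveolar macrophages (n = 3), early lesion cells alone (n = 3), macrophages co-cultured with early lesion cells (n = 2) and macrophages alone (n = 2). In the primary tumor experiment the groups were primary tumor cells co-cultured with macrophages, primary tumor cells alone, macrophages co-cultured with primary tumor cells and macrophages alone (n = 3 each). All mammary cells, co-cultured or not, came from MMTV-HER2 mice, in which a mammary tumor virus promoter drives the HER2 oncogene in mammary epithelium. All macrophages came from wildtype FVB mice, so the transgene was not carried by them. Co-cultures grew for 7 days on Matrigel, a basement membrane gel, and the cell types were then separated by fluorescence-activated sorting by a gate not given in the sources used here. Replicates are called biological in the labels, which do not say whether they are separate mice, so p-values measure the spread between these libraries.

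Interferons alpha and beta bind the receptor IFNAR, whose kinases JAK1 and TYK2 activate a transcription factor complex that holds STAT2 and IRF9. The complex binds the interferon-stimulated response element of target promoters. Interferon gamma binds IFNGR1 and IFNGR2 and acts on gamma-activated sites. GBP and IRG genes are best known as its targets, and their products attack the vacuoles of intracellular pathogens. Alveolar macrophages, the resident phagocytes of the air spaces, are a known source of type I interferon during respiratory virus infection.

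The type I targets fall into roles. Isg15 encodes a ubiquitin-like modifier and Usp18 the protease that removes it and dampens receptor signalling. Ifit1, Ifit2 and Ifit3 encode proteins that bind foreign RNA. Ifih1, Ddx58 and Dhx58 encode the cytosolic RNA sensors MDA5, RIG-I and LGP2, and Irf7, Irf9 and Stat2 encode transcription factors of the pathway. Oas1a, Oas2 and Oas3 make the second messenger that activates RNase L, and Oasl1 and Oasl2 are their relatives. Mx1, Rsad2, Bst2, Eif2ak2, Zbp1 and Cmpk2 encode antiviral effectors or sensors, and Mx2, a relative of Mx1, is annotated as a polymorphic pseudogene in the reference genome. Ifi44, Ifi27l2a, Rtp4, Xaf1, Parp9, Parp14, Dtx3l, Trim30a, Herc6 and Ifi35 complete the set.

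Promoter windows show what the genes share that the choice by name did not use. RefSeq windows of build GRCm38.p6, 250 bases before to 50 bases after the gene's start, were matched for 30 of the 41 genes. A pair of letter patterns was searched on both strands, GAAANNGAA, the core of the interferon-stimulated response element, and TTCNNNGAA, the core of the gamma-activated site. GAAANNGAA was present in 13 of 23 type I targets with a window (56.5%), in 6 of 6 GBP and IRG genes (100%) and not in Irf1, beside 2638 of all 27025 genes with a window (9.76%). TTCNNNGAA was present in 5 of 23 type I targets (21.7%), in 3 of 6 GBP and IRG genes (50%) and in Irf1, beside 2582 of all 27025 genes (9.55%). A match describes letters in a window and is not a shown binding site. The 4 windows printed next belong to Isg15, the classic type I target, and to the genes Bst2, Gbp2 and Gbp3, whose levels moved in macrophages below. All are 5′ to 3′ on the gene's strand, and capitals mark every base inside a match to either pattern, read on either strand.
Isg15: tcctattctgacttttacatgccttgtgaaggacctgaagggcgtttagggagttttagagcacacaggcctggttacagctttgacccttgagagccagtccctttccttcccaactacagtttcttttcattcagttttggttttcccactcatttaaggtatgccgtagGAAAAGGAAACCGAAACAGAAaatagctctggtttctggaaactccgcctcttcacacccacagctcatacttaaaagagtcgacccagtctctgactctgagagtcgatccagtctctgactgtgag
Bst2: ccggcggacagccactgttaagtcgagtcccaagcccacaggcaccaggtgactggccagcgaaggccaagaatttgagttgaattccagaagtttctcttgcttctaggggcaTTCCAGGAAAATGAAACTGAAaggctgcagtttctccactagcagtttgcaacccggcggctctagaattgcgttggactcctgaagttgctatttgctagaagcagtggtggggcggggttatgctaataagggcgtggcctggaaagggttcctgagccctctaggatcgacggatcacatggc
Gbp2: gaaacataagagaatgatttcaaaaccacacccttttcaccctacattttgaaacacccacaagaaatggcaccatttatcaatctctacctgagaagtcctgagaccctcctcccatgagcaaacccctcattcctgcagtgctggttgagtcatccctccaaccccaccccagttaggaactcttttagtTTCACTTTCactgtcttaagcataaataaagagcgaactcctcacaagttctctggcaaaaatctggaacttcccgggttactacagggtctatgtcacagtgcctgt
Gbp3: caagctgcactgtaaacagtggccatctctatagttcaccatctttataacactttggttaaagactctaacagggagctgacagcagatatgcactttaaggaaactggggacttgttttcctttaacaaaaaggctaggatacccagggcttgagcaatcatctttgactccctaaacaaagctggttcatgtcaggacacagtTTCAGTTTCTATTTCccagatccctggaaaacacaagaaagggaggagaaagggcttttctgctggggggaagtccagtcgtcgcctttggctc
The Isg15 window lies at chr4:156200769-156201068 on the minus strand and holds 3 overlapping matches to GAAANNGAA, the first starting at -78 from the gene's start. Bst2 has its window at chr8:71537423-71537722 on the minus strand, with 2 overlapping matches to GAAANNGAA from -130 and a TTCNNNGAA from -136 that overlaps them. The Gbp2 window, chr3:142620413-142620712 on the plus strand, holds 1 match at -58. The Gbp3 window, chr3:142559794-142560093 on the plus strand, holds 2 overlapping matches from -44.

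Libraries held 19.7 to 43.7 M (mega) counts assigned to genes. Macrophage libraries of the primary tumor experiment stand apart, with 65.7 to 78.6% of their counts on mitochondrially encoded genes and 4.65 to 6.03 M on genes other than these and Grip2, against 2.86 to 3.53% and 19.1 to 42.2 M in the other 16 libraries. Levels below are in CPM, counts scaled to the library total, taken here outside those genes and TMM-normalized within each experiment, so levels of the 2 experiments stand on separate scales. The defining markers matched the labels, with a summed level over 11 macrophage markers of 17920 to 70910 CPM in macrophage libraries and of 0.897 to 62.5 CPM in mammary libraries. Epithelial transcripts were counted in sorted macrophages. Over 9 epithelial markers the sum was 215 to 263 CPM in macrophages from early lesion co-culture, against 75.6 to 79.6 CPM alone, and 134 to 192 CPM in macrophages from primary tumor co-culture, against 27.7 to 38.6 CPM alone. In macrophages with early lesion cells Cdh1 made up 57.8% of that sum, at 21% of its mean level in the partner cells, while the other 8 markers were at 0.67 to 1.32% of theirs. In macrophages with primary tumor cells Erbb2 made up 56.8%, and the 9 markers were at 0.455 to 4.24% of their partner level, Cdh1 again the highest. In bulk samples, fewer cells of a type and less RNA per cell cannot be told apart.

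The ligands themselves were at or near zero. Ifng, the gene of interferon gamma, had 0 counts in 22 of 22 libraries, and Ifna1, Ifna4, Ifna5 and Ifnl2 had 0 counts as well. Ifnb1, the gene of interferon beta, had 3 counts in 1 library of early lesion cells alone and 0 in the others. A count of 0 allows up to 3 counts, which is 0.0637 to 0.758 CPM depending on the library, a limit that covers counting error only. Ifna2 had 3 counts in all, Ifnl3 2, Ifne 1 and Ifnk, an interferon of keratinocytes, 27 counts spread over 9 libraries. None of the 10 interferon genes listed had enough counts to be tested. Markers of lymphocytes, NK cells and plasmacytoid dendritic cells, cells that make much of the interferon in tissues, summed to 0.565 to 2.48 CPM over 11 genes, and Cd3g, Ncr1 and Gzmb were at 0 in every group. The targets were present all the same, with a count in every library for 33 of the 41 genes.

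In mono-culture, many of the interferon-stimulated genes differed between macrophages and mammary cells, as did most genes of any kind. In macrophages alone against early lesion cells alone, 27 of 40 genes tested passed an adjusted p of 0.05 (edgeR quasi-likelihood test, Benjamini-Hochberg over all genes tested), 18 higher and 9 lower, beside 77.8% of all genes called (37.0% higher and 40.7% lower). Against primary tumor cells alone 29 of 36 passed, 18 higher and 11 lower, beside 78.9% of all genes called (36.7% higher and 42.3% lower). The members' shares, 67.5% and 80.6%, were below and near that background. Without mono-cultured macrophage replicate 2 or 3 of the primary tumor experiment the 11 lower calls against primary tumor cells became 7, as Isg15, Ifit2, Oasl1 and Igtp were lost. Trim30a, which encodes a TRIM-family regulator of inflammatory signalling, had 72.7 and 78.2 CPM in macrophages of the early lesion experiment and 73.5, 74.0 and 71.8 CPM in those of the primary tumor experiment, against at most 0.657 CPM in either kind of mammary cell alone. Its log2 fold changes were 7.30 ± 0.14 (SE, adjusted p = 5.04e-11) and 7.08 ± 0.14 (adjusted p = 1.51e-10). Ifi27l2a, a small interferon-induced protein gene, was likewise a macrophage transcript, at 12.7 and 11.5 CPM and at 5.05, 4.14 and 5.60 CPM, against at most 0.173 CPM in mammary cells alone.

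A second group was higher in mammary cells. Ifi44, which encodes a GTP-binding-like protein of antiviral defence, had 0.252 and 0.334 CPM in macrophages against 4.48, 6.15 and 5.05 CPM in early lesion cells, a log2 fold change of -4.11 ± 0.31 (SE, adjusted p = 1.05e-06). It had 0.689, 0.565 and 0.175 CPM in macrophages of the primary tumor experiment against 6.75, 5.64 and 10.01 CPM in primary tumor cells (-3.94 ± 0.47, adjusted p = 2.55e-05). Ifit1 was lower in macrophages too, by -3.70 ± 0.24 and -2.53 ± 0.36 on the log2 scale (adjusted p = 3.31e-07 and 9.73e-05). Of all genes 77.8% and 78.9% were called in the 2 comparisons, and the share called in both was not computed. The calls shared by the members are therefore not set against a background. In both comparisons 13 genes were called higher in macrophages, among them Bst2, Dhx58, Stat2, Oas1a, Gbp2, Gbp5, Gbp7 and Irgm1. The 6 called lower in both were Ifi44, Ifit1, Irf7, Irf9, Oasl1 and Rtp4, and Dtx3l and Igtp were called in opposite directions. Some of these calls were weak. In the primary tumor experiment Oasl1 was lost with DESeq2 (adjusted p = 0.0843) and without any 1 of the macrophage libraries or mono-cultured primary tumor replicate 3 (adjusted p up to 0.0863), Dhx58 without macrophage replicate 2 or 3 (up to 0.0631), Irgm1 without macrophage replicate 2 (0.0559), and Dtx3l with no filter on low counts (0.0553). In the early lesion experiment Oasl1 and Irf7 were lost without macrophage replicate 2 (adjusted p = 0.0538 and 0.057).

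GBP and IRG genes leaned to the macrophages of the early lesion experiment. There 6 of 7 were called higher and none lower, beside 37.0% and 40.7% of all genes. The median log2 fold change of the 7 was 2.13, beside a median of 0.12 for 32 type I targets and -0.06 for all genes. Gbp7 had 62.4 and 66.9 CPM in macrophages against 13.1, 11.8 and 11.1 CPM in early lesion cells (2.44 ± 0.08, adjusted p = 2.51e-09). In the primary tumor experiment 4 of 7 were called higher and 2 lower in macrophages, beside 36.7% and 42.3% of all genes. The median there was 0.44, beside 0.43 for the type I targets and -0.14 for all genes. Igtp, 1 of the 2 lower, held in 2 of 6 fits without 1 library, being lost without macrophage replicate 2 or 3 or mono-cultured primary tumor replicate 1 or 3 (adjusted p up to 0.098). Gbp2, 1 of the 4 higher, was lost without mono-cultured macrophage or primary tumor replicate 1 (adjusted p up to 0.0708) and with no filter on low counts (adjusted p = 0.158). Iigp1, an IRG gene, had 1.61, 1.51 and 2.10 CPM in macrophages against 15.4, 12.5 and 13.4 CPM in primary tumor cells (-2.90 ± 0.23, adjusted p = 1.27e-06), while in the early lesion experiment its difference of -0.20 ± 0.26 was not called. Irf1 did not separate the cell types, at 0.00 ± 0.06 and 0.03 ± 0.13 on the log2 scale, and was not called.

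**Figure D1:**
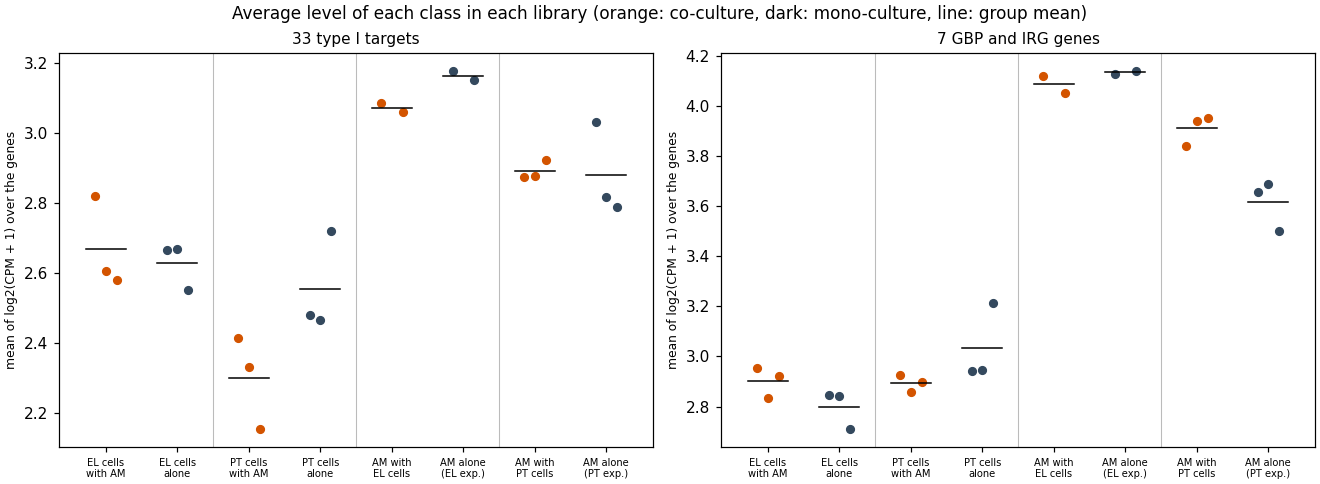
Mean of log2(CPM + 1) over the 33 type I targets (left) and the 7 GBP and IRG genes (right) in each library, with co-culture in orange, mono-culture in dark and a line at each group mean; levels of the 2 experiments are normalized separately and the vertical axes do not start at 0. For GBP and IRG genes the 3 macrophage libraries from primary tumor co-culture (3.84 to 3.95) sit above the 3 of macrophages alone (3.50 to 3.69).

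Averaged by class, type I targets in mammary cells were not higher with macrophages than alone beyond the spread between libraries, at either stage. The plot of class averages gives the mean log2(CPM + 1) over each class in each library. For the type I targets it was 2.67 ± 0.13 (SD, n = 3) in early lesion cells with macrophages and 2.63 ± 0.07 alone, and 2.30 ± 0.13 in primary tumor cells with macrophages and 2.56 ± 0.14 alone. The early lesion groups overlapped, while the 3 co-cultured primary tumor libraries (2.15 to 2.41) lay below the 3 mono-cultured ones (2.47 to 2.72). For macrophages the type I average was 3.07 ± 0.02 with early lesion cells and 3.16 ± 0.02 alone (n = 2 each), and 2.89 ± 0.03 with primary tumor cells and 2.88 ± 0.13 alone (n = 3 each). The GBP and IRG average was 2.90 ± 0.06 in co-cultured and 2.80 ± 0.08 in mono-cultured early lesion cells, and 2.89 ± 0.03 in co-cultured and 3.03 ± 0.16 in mono-cultured primary tumor cells. In macrophages it was 4.09 ± 0.05 with early lesion cells and 4.14 ± 0.01 alone, and 3.91 ± 0.06 with primary tumor cells and 3.62 ± 0.10 alone. These averages carry no test.

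In early lesion cells, 1 interferon-stimulated gene was called in co-culture with macrophages: Rtp4, a chaperone-like gene of receptor transport that is also an antiviral effector. Of 37 genes tested, Rtp4 was called higher and none lower, beside 0.510% of all genes called (0.369% higher and 0.141% lower). Rtp4 (chr16:23520291-23614222, plus strand, GRCm38) had 12.7, 11.3 and 11.9 CPM in early lesion cells with macrophages against 7.41, 7.04 and 7.11 CPM in early lesion cells alone. The groups did not overlap, and the log2 fold change was 0.73 ± 0.09 (SE, adjusted p = 0.0223, edgeR quasi-likelihood test). Macrophages held less of this transcript, at 0.871 and 1.99 CPM in the same co-cultures, while macrophage markers summed to 16.5 to 62.5 CPM in co-cultured and 7.58 to 29.4 CPM in mono-cultured early lesion cells. The call was lost without any 1 of the mono-cultured libraries or co-cultured replicate 2 or 3 (adjusted p up to 0.158, log2 fold change 0.68 to 0.78) and with all groups in 1 fit (adjusted p = 0.106). Of the exonic length of Rtp4, 13.9% overlaps the same-strand gene Gm45338, so reads there could be counted for either.

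The other type I targets of early lesion cells did not pass. Changes ran from -0.54 to 0.73 on the log2 scale over 29 type I targets, with a median of 0.07 and 21 above 0, and from -0.22 to 0.69 over 7 GBP and IRG genes, with a median of 0.09 and 5 above 0, beside a median of 0.00 and 50.4% above 0 for all genes. Isg15 had 2.81, 2.01 and 1.67 CPM with macrophages against 2.34, 1.87 and 2.30 CPM alone (0.01 ± 0.24, adjusted p = 0.985). Irf7, a master regulator of type I interferon transcription, had 4.49, 5.92 and 4.97 CPM against 5.24, 5.43 and 4.24 CPM (0.04 ± 0.16, adjusted p = 0.924). For both genes the groups overlapped.

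Several genes of early lesion cells separated by library without passing the test across all genes. Ifi44 had 7.30, 8.16 and 7.03 CPM with macrophages against 4.48, 6.15 and 5.05 CPM alone (0.52 ± 0.15, adjusted p = 0.196). Igtp, an IRG gene also called Irgm3, had 4.67, 3.20 and 2.87 CPM against 2.36, 2.42 and 1.91 CPM (0.69 ± 0.23, adjusted p = 0.243). Irf1 went the other way, at 56.9, 50.8 and 53.2 CPM against 61.1, 62.8 and 60.2 CPM (-0.19 ± 0.05, adjusted p = 0.188). All 3 genes had groups that did not overlap. Among the 37 tested, 8 had an unadjusted p under 0.05. Co-cultured replicate 1 held the highest level of Isg15, Oasl2 (3.73 CPM against 1.09 and 1.20 in replicates 2 and 3) and Bst2 (21.7 against 13.2 and 14.0). Fibroblast markers summed to 1041 to 3143 CPM in co-cultured and 961 to 1883 CPM in mono-cultured early lesion cells, and their part in these levels was not tested. Without co-cultured replicate 1, 5 genes were called: Rtp4 and Dtx3l higher, and Irf1, Bst2 and Oasl2 lower. Over the fits without 1 library the calls among all genes ran from 0 to 1612, against 76 with every library. The 5 calls therefore cannot be set beside the 0.510% of the main fit.

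In primary tumor cells no interferon-stimulated gene passed the unpaired test, and most leaned lower with macrophages. None of 35 genes tested was called by edgeR, beside 1.67% of all genes called (0.659% higher and 1.01% lower), while 12 had an unadjusted p under 0.05. DESeq2 called 4 lower (Rtp4, Usp18, Irf9 and Oas1a), a count given without the share of all genes that DESeq2 called. Of 27 type I targets 22 had a fold change below 0, with a median of -0.33 and a range of -1.90 to 0.52. Of 7 GBP and IRG genes 6 were below 0, with a median of -0.23 and a range of -0.43 to 0.13, beside a median of 0.00 and 50.9% above 0 for all genes. Mono-cultured replicate 3 stood highest in both class averages. For type I targets the mono-cultured libraries had 2.48, 2.47 and 2.72, and the co-cultured ones 2.41, 2.33 and 2.15. For GBP and IRG genes they had 2.94, 2.94 and 3.21, and the co-cultured ones 2.93, 2.86 and 2.90. Same-numbered co-cultured and mono-cultured primary tumor libraries deviated together, so values with the replicate number as a block are given beside these. With that block 9 of 35 genes were called (25.7%), 8 lower and 1 higher, beside 21.0% of all genes called in that fit, a share near the background. The 8 lower were Isg15, Usp18, Irf7, Irf9, Ifi44, Parp14, Cmpk2 and Gbp2, and the 1 higher was Ifit2. Among all genes the block fit called 10.4% lower and 10.6% higher.

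Rtp4 had 7.09, 8.32 and 4.52 CPM in primary tumor cells with macrophages against 13.2, 13.7 and 20.9 CPM in primary tumor cells alone. The groups did not overlap, with a log2 fold change of -1.25 ± 0.27 (SE, adjusted p = 0.0748), and with the block it was -1.24 (adjusted p = 0.200). Isg15 had 1.93, 1.58 and 1.79 CPM against 2.47, 2.79 and 5.76 CPM (-1.04 ± 0.34, adjusted p = 0.152; with the block -0.97 ± 0.24, adjusted p = 0.00947). For both genes mono-cultured replicate 3 was the highest library. Usp18 had 0.400, 0.272 and 0.198 CPM against 0.522, 1.30 and 1.52 CPM (-1.90 ± 0.50, adjusted p = 0.0932; with the block -1.80 ± 0.46, adjusted p = 0.00993), levels that rest on few reads.

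Irf9, the DNA-binding subunit of the type I response complex, had 29.0, 24.97 and 22.2 CPM with macrophages against 32.5, 31.8 and 36.8 CPM alone. Its groups did not overlap (-0.40 ± 0.11, adjusted p = 0.0964; with the block -0.40 ± 0.10, adjusted p = 0.0172). Irf7 had 4.86, 4.03 and 3.33 CPM against 5.53, 4.97 and 7.38 CPM, also apart (-0.54 ± 0.20, adjusted p = 0.199; with the block -0.53 ± 0.18, adjusted p = 0.0473). Oas1a had 3.03, 3.44 and 2.38 CPM against 4.17, 5.04 and 8.73 CPM (-1.01 ± 0.30, adjusted p = 0.127), and 57.6% of its 50-base words occur in related genes, so its counts could hold reads of its copies. Ifit2 was the member that was higher with the block, at 5.46, 4.16 and 3.41 CPM against 4.25, 3.14 and 1.79 CPM (0.52 ± 0.31, adjusted p = 0.405; with the block 0.54 ± 0.17, adjusted p = 0.0288), with overlapping groups but each co-cultured library above the mono-cultured one of its number.

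Among interferon gamma targets of primary tumor cells, Gbp2 had 18.4, 19.4 and 17.9 CPM with macrophages against 19.6, 23.1 and 23.4 CPM alone (-0.24 ± 0.09, adjusted p = 0.207; with the block -0.24 ± 0.08, adjusted p = 0.0407). Igtp had 3.93, 3.71 and 3.77 CPM against 5.08, 3.35 and 5.42 CPM, which overlap (-0.27 ± 0.20, adjusted p = 0.495). Irf1 had 33.6, 35.0 and 29.8 CPM against 30.4, 31.7 and 32.2 CPM, also overlapping (0.07 ± 0.08, adjusted p = 0.666). Macrophage markers summed to 7.51 to 9.86 CPM in co-cultured and 0.897 to 1.45 CPM in mono-cultured primary tumor cells, with Marco, Itgax, Car4 and Ear2 at 0 in the mono-cultured ones. Macrophages held less Rtp4, Ifi44 and Irf7 than the tumor cells in the comparison of mono-cultures above.

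**Figure D2:**
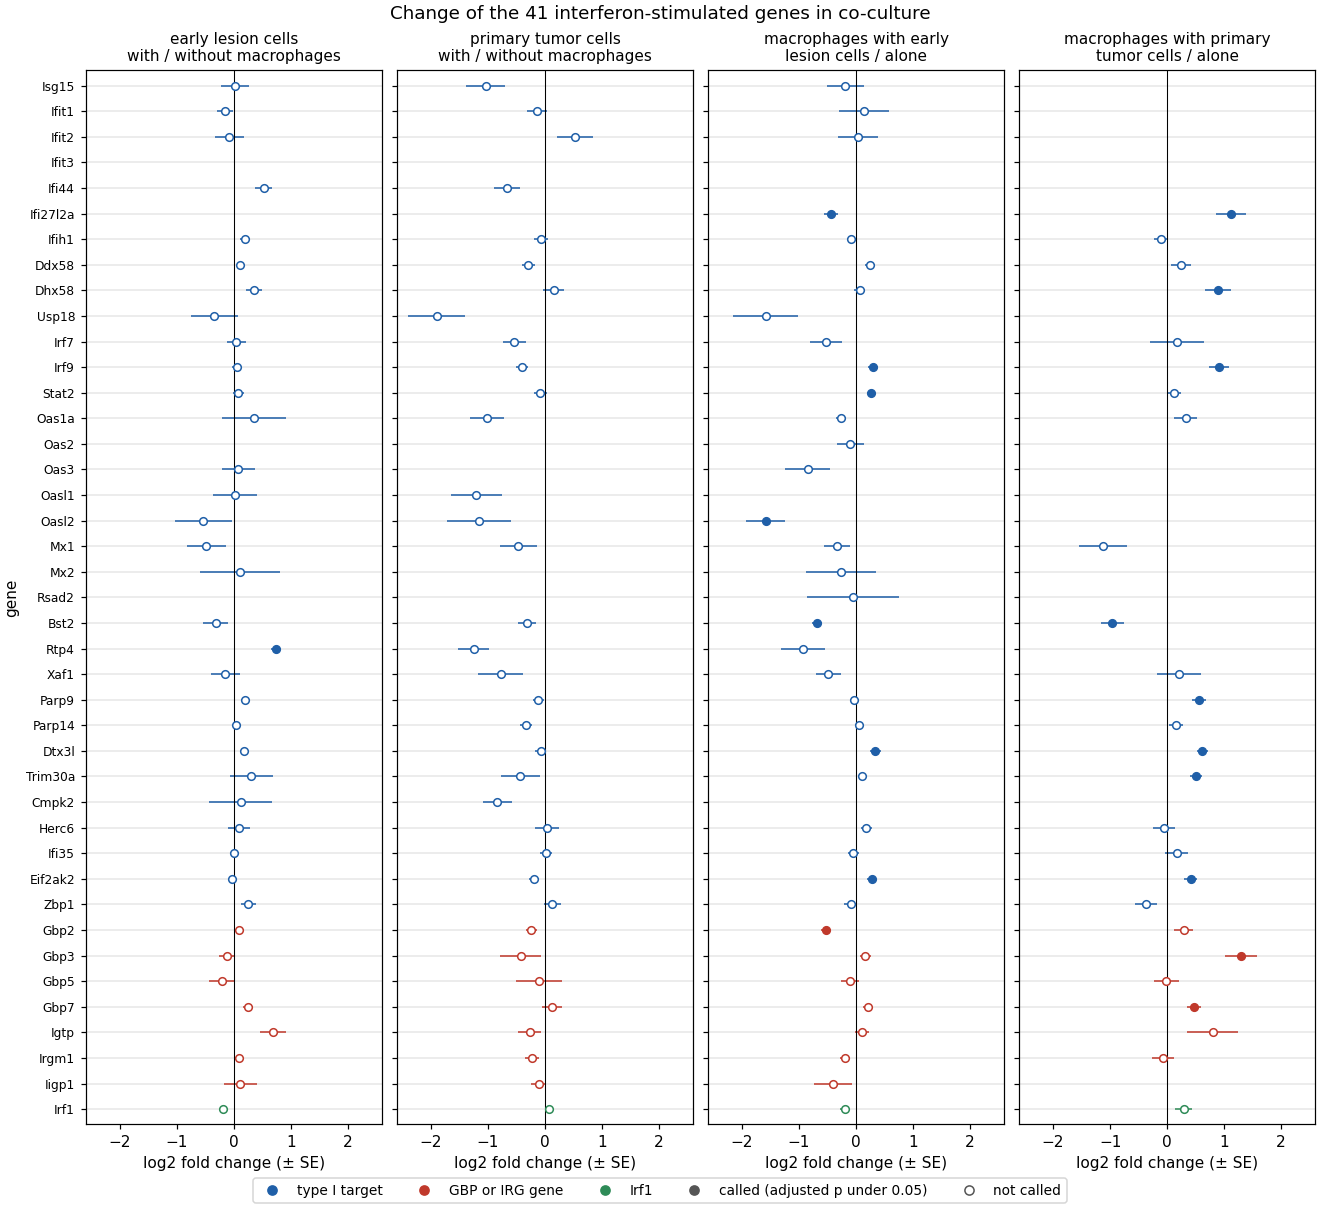
Log2 fold change (± SE) of each of the 41 genes with against without the partner cell in the 4 co-culture comparisons, in blue for type I targets, red for GBP and IRG genes and green for Irf1; filled points passed an adjusted p of 0.05 and genes with no point were not tested. Filled points number 1 in early lesion cells, 0 in primary tumor cells, 8 in macrophages with early lesion cells and 10 in macrophages with primary tumor cells.

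In macrophages kept with early lesion cells, the type I targets Stat2, Irf9, Eif2ak2 and Dtx3l rose, and Bst2, Oasl2, Ifi27l2a and Gbp2 fell. These 8 calls were among 37 genes tested (21.6%), beside 18.3% of all genes called, a share near the background. By class, 4 type I targets were higher and 3 lower of 29, and 1 GBP gene was lower of 7, while all genes were called 9.11% higher and 9.19% lower. The medians were -0.09 for type I targets and -0.11 for GBP and IRG genes, beside 0.00 for all genes.

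Bst2 (tetherin, which holds budding viruses at the cell surface, chr8:71534255-71537456, minus strand) had 43.1 and 47.6 CPM in macrophages with early lesion cells against 75.01 and 66.4 CPM in macrophages alone. Its groups were well apart, at a log2 fold change of -0.68 ± 0.09 (SE, adjusted p = 0.000292), and it kept its call without any 1 library but not with all groups of the experiment in 1 fit (-0.64, adjusted p = 0.0972). Gbp2, a GTPase of cell-autonomous immunity (chr3:142620602-142638008, plus strand), had 23.9 and 25.6 CPM against 33.2 and 35.9 CPM (-0.52 ± 0.09, adjusted p = 0.00156), called without any 1 library as well. Oasl2 had 0.809 and 1.27 CPM against 3.28 and 2.78 CPM (-1.58 ± 0.34, adjusted p = 0.00741). Ifi27l2a had 9.12 and 9.18 CPM against 12.7 and 11.5 CPM (-0.44 ± 0.13, adjusted p = 0.0312).

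The genes that rose had smaller fold changes than those that fell. Irf9 (chr14:55603571-55610030, plus strand) had 27.0 and 25.1 CPM with early lesion cells against 20.9 and 20.3 CPM alone (0.30 ± 0.09, adjusted p = 0.0379). Its partner Stat2 had 77.0 and 73.4 CPM against 58.7 and 63.3 CPM (0.26 ± 0.07, adjusted p = 0.0249). Eif2ak2, which encodes the translation-blocking kinase PKR, had 68.4 and 63.4 CPM against 53.7 and 52.4 CPM (0.27 ± 0.07, adjusted p = 0.0246). For each of these genes both co-cultured libraries stood above both of macrophages alone. Dtx3l, the E3 ligase that pairs with PARP9 (chr16:35926511-35939151, minus strand), had 62.8 and 56.1 CPM against 41.7 and 49.7 CPM (0.34 ± 0.09, adjusted p = 0.0267). Irf1 was not called, at 52.8 and 57.1 CPM against 62.9 and 59.6 CPM (-0.20 ± 0.08, adjusted p = 0.109).

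With 2 libraries a group, the 4 that rose and Ifi27l2a each held in 2 of 4 fits that left out 1 library (adjusted p up to 0.217, for Irf9). All 5 lost the call without co-cultured replicate 1 (the number of calls in the 4 fits ran from 4 to 10), Stat2, Dtx3l and Ifi27l2a also without mono-cultured replicate 1, and Eif2ak2 and Irf9 also without mono-cultured replicate 2. DESeq2 did not call Ifi27l2a, Irf9, Stat2 or Eif2ak2, and Bst2, Oasl2, Stat2 and Ifi27l2a were not called with all groups in 1 fit.

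In macrophages kept with primary tumor cells, 9 interferon-stimulated genes rose and Bst2 fell. The 10 calls among 26 genes tested (38.5%) stand beside 30.6% of all genes called, with 15.8% of all genes higher and 14.8% lower. Of 19 type I targets 7 were higher and 1 lower, with a median log2 fold change of 0.21 and 14 above 0, and of 6 GBP and IRG genes 2 were higher and none lower, with a median of 0.38 and 4 above 0, beside a median of 0.00 and 50.1% above 0 for all genes. At this depth 15 of the 41 genes were too low to test, among them Isg15, Usp18, Rsad2, Rtp4 and all 3 Ifit genes. Mitochondrially encoded genes held 78.6, 74.9 and 76.5% of counts with primary tumor cells, against 65.7, 72.7 and 69.6% alone. Grip2 held 12.9% in mono-cultured replicate 1. The mitochondrial shares did not overlap between the groups, so their part in these changes cannot be told apart from co-culture.

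Irf9 had 26.2, 24.8 and 23.7 CPM in macrophages with primary tumor cells against 14.2, 14.7 and 11.7 CPM in macrophages alone, with the groups far apart (0.91 ± 0.17, adjusted p = 0.00117). Dtx3l had 123, 117 and 130 CPM against 80.9, 82.7 and 83.5 CPM (0.62 ± 0.10, adjusted p = 0.000261). Parp9, its partner, had 77.7, 84.1 and 82.0 CPM against 51.0, 66.3 and 52.1 CPM (0.56 ± 0.12, adjusted p = 0.00334). The 2 genes sit head to head on chromosome 16, and 9.4% of the exonic length of Parp9 overlaps Dtx3l on the opposite strand, so without a stated strand setting some reads could be shared.

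Trim30a had 95.6, 108 and 102 CPM with primary tumor cells against 73.5, 74.0 and 71.8 CPM alone (0.51 ± 0.10, adjusted p = 0.00164). Ifi27l2a had 10.2, 10.9 and 10.6 CPM against 5.05, 4.14 and 5.60 CPM (1.12 ± 0.26, adjusted p = 0.00444), the direction opposite to that with early lesion cells. Both transcripts were at or below 0.758 CPM in every mammary library. Dhx58, which encodes the RNA sensor LGP2, had 21.2, 20.7 and 18.5 CPM against 6.66, 13.2 and 13.1 CPM (0.89 ± 0.23, adjusted p = 0.0104). Eif2ak2 had 61.9, 58.9 and 59.5 CPM against 51.0, 44.6 and 43.2 CPM (0.41 ± 0.12, adjusted p = 0.0184).

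The GBP genes that rose were Gbp3 and Gbp7, neighbours on chromosome 3. Gbp3 (chr3:142560026-142573209, plus strand) had 9.52, 13.9 and 10.3 CPM with primary tumor cells against 3.45, 5.65 and 4.72 CPM alone (1.30 ± 0.28, adjusted p = 0.00314). Gbp7 (chr3:142530342-142550149, plus strand) had 89.3, 71.7 and 78.3 CPM against 65.9, 56.9 and 55.0 CPM (0.47 ± 0.12, adjusted p = 0.0108). Neither gene had overlapping groups. Of the 50-base words of Gbp7, 12.7% also occur in other genes, among them Gbp3, and 3.75% of those of Gbp3 occur in Gbp7 or Gbp11.

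Against this, Bst2 had 9.73, 12.9 and 9.84 CPM in macrophages with primary tumor cells against 23.7, 18.6 and 22.2 CPM alone (-0.96 ± 0.20, adjusted p = 0.00219). Gbp2 had 30.3, 31.6 and 40.3 CPM against 33.3, 27.7 and 24.9 CPM, which overlap (0.29 ± 0.17, adjusted p = 0.220). Irf1, at 37.0, 36.4 and 36.3 CPM against 25.04, 32.4 and 33.8 CPM, did not overlap but was not called (0.29 ± 0.15, adjusted p = 0.155), nor was Igtp (0.80 ± 0.44, adjusted p = 0.192). Usp18 was untested, with 0 counts in all 3 libraries of macrophages with primary tumor cells and 4, 1 and 3 counts in those alone. All calls held in 6 of 6 fits without 1 library except Gbp7 (lost without mono-cultured replicate 2 or co-cultured replicate 1, adjusted p up to 0.0579) and Eif2ak2 (lost without mono-cultured replicate 2 or 3 or co-cultured replicate 1 or 3, adjusted p up to 0.0838). With all groups in 1 fit Ifi27l2a was not called (adjusted p = 0.0761), and DESeq2 did not call Eif2ak2.

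**Figure D3:**
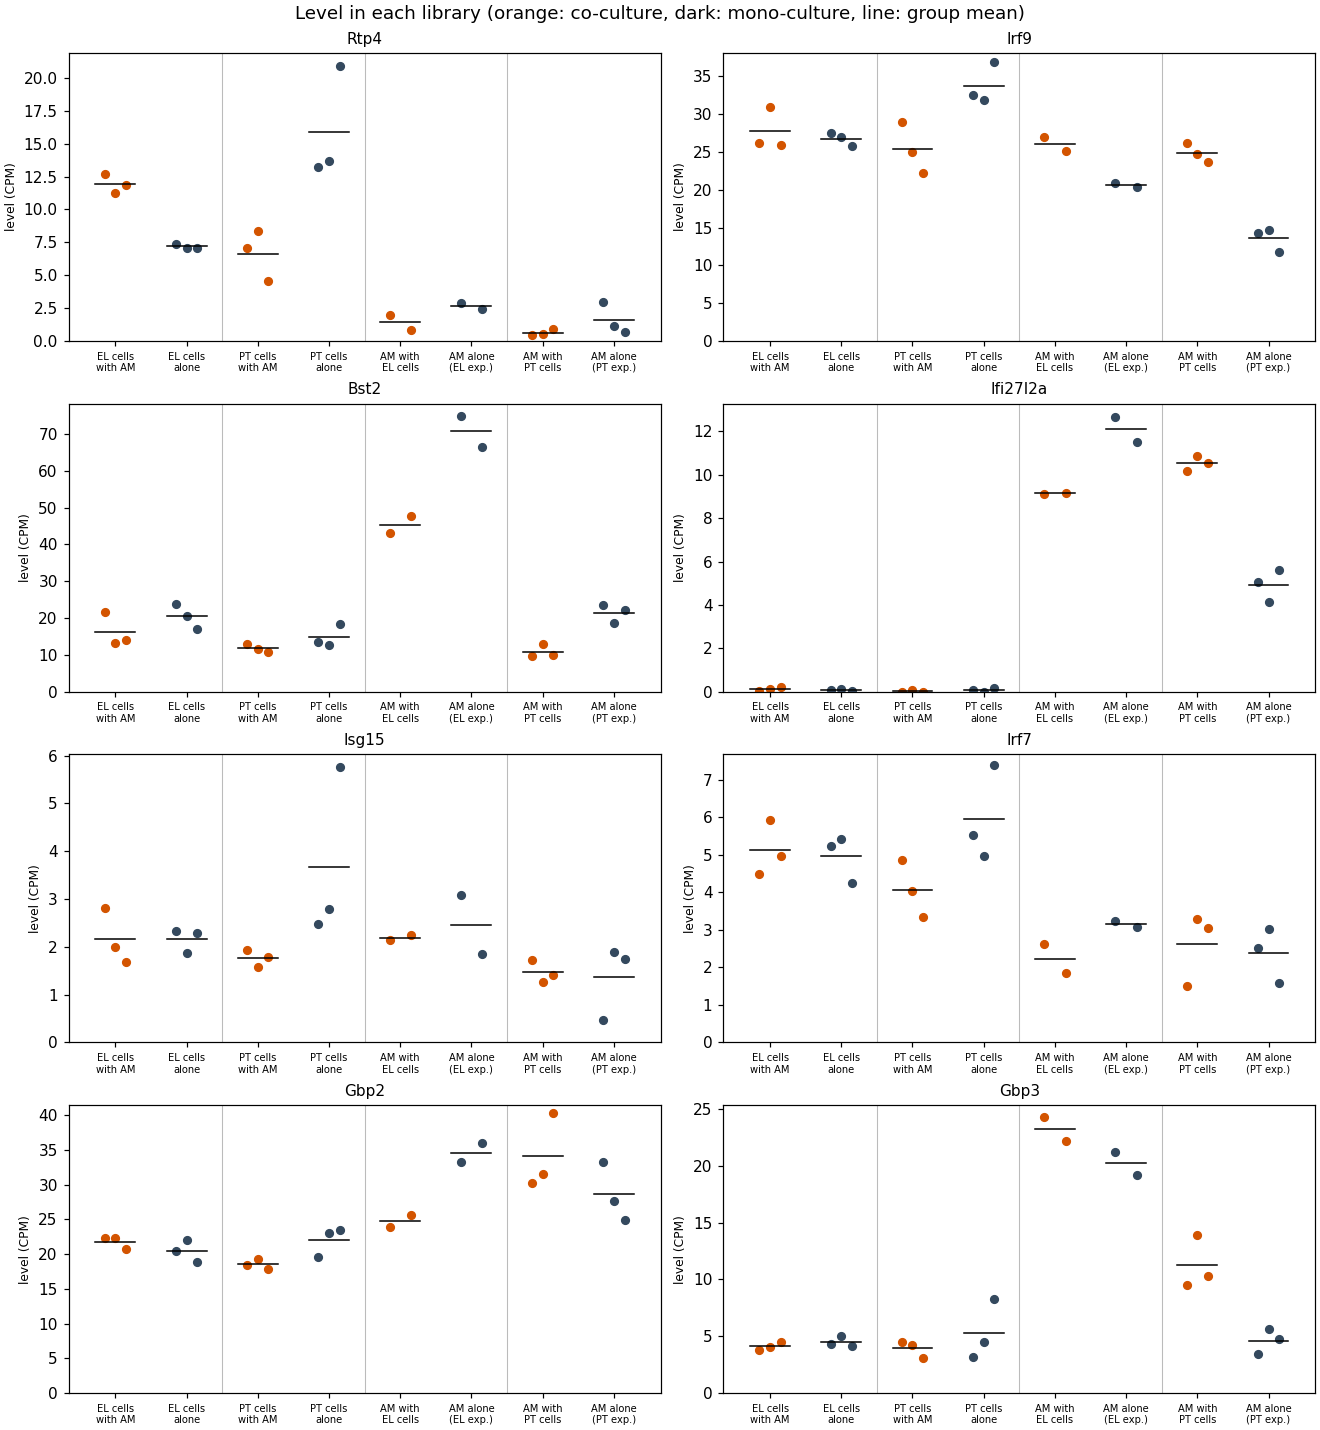
Level in CPM of 8 of the genes in each of the 22 libraries, with co-culture in orange, mono-culture in dark and a line at each group mean; levels of the 2 experiments are normalized separately. Irf9 was higher in both co-cultured macrophage groups, Bst2 lower in both, and Ifi27l2a lower with early lesion cells (9.12 and 9.18 CPM) and higher with primary tumor cells (10.2 to 10.9 CPM) than in the macrophages alone of the same experiment.

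Across both partners, 26 of the genes were tested in macrophages in each comparison and 5 were called in both, 71.4% of the 7 called with early lesion cells and 50% of the 10 called with primary tumor cells. Over all 10977 genes tested in both, the calls shared were 56.0% of those with early lesion cells and 38.0% of those with primary tumor cells, and the members' few calls are not shown to differ from these shares. Bst2 was lower in both, Irf9, Dtx3l and Eif2ak2 were higher in both, and Ifi27l2a was called in opposite directions, so 4 of 5 shared a direction, beside 93.5% of the shared calls over all genes. The co-cultures used different libraries of macrophages alone. Epithelial markers were called higher in co-cultured macrophages too (9 of 9 called with early lesion cells and 5 of 6 tested with primary tumor cells), and their part in the levels here was not tested.

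Responses of the 2 stages were then compared directly, as the early lesion fold change minus the primary tumor fold change. Stage, experiment and, in macrophages, the mitochondrial share differ together, so they cannot be told apart. In mammary cells 1 of 37 genes differed, beside 0.137% of all genes called (0.0981% higher and 0.0393% lower). Rtp4, up in early lesion cells and below its mono-culture level in every primary tumor co-culture library, differed by 1.99 ± 0.30 on the log2 scale (SE, adjusted p = 0.0269; with the replicate block adjusted p = 0.0308). The call was lost without any 1 of the mono-cultured early lesion libraries, co-cultured early lesion replicate 2 or 3 or mono-cultured primary tumor replicate 2 (adjusted p up to 0.121). Ifi44 differed by 1.19 ± 0.29 (adjusted p = 0.138), and with the block by 1.17 ± 0.24 (adjusted p = 0.0126). Isg15 differed by 1.06 ± 0.45 (adjusted p = 0.310). Of 29 type I targets 23 had a difference above 0, with a median of 0.37, and of 7 GBP and IRG genes 6 did, with a median of 0.30, beside 50.7% and 0.00 for all genes. Irf1 had a difference of -0.27 ± 0.09 (adjusted p = 0.229).

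In macrophages 4 of 35 genes differed (11.4%), all lower in the early lesion response, beside 10.9% of all genes called (5.70% lower and 5.25% higher). Ifi27l2a differed by -1.55 ± 0.27 (adjusted p = 0.00217), a call that held in 10 of 10 fits without 1 library. Gbp3 differed by -1.11 ± 0.28 (adjusted p = 0.0186), having 24.3 and 22.2 CPM with early lesion cells against 21.2 and 19.2 CPM alone in that experiment. Gbp2 differed by -0.80 ± 0.21 (adjusted p = 0.0207) and Parp9 by -0.58 ± 0.16 (adjusted p = 0.0271), both kept in 4 of 10 such fits, and Gbp3 in 7 of 10. Any 1 of the 4 early lesion macrophage libraries ended the calls of Gbp2 and Parp9 when left out, as did co-cultured primary tumor replicate 3 for both, mono-cultured replicate 2 of that experiment for Gbp2 and co-cultured replicate 2 for Parp9 (adjusted p up to 0.124 for Gbp2 and 0.136 for Parp9). Gbp3 lost its call without mono-cultured replicate 1 or either co-cultured replicate of the early lesion experiment (adjusted p up to 0.0992) and with all groups in 1 fit (adjusted p = 0.0829). All 7 GBP and IRG genes had a difference below 0, with a median of -0.25, while 15 of 27 type I targets did, with a median of -0.13, beside a median of 0.02 for all genes. Irf9 (-0.60 ± 0.20, adjusted p = 0.0619) and Dhx58 (-0.81, adjusted p = 0.067) did not pass.

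**Figure D4:**
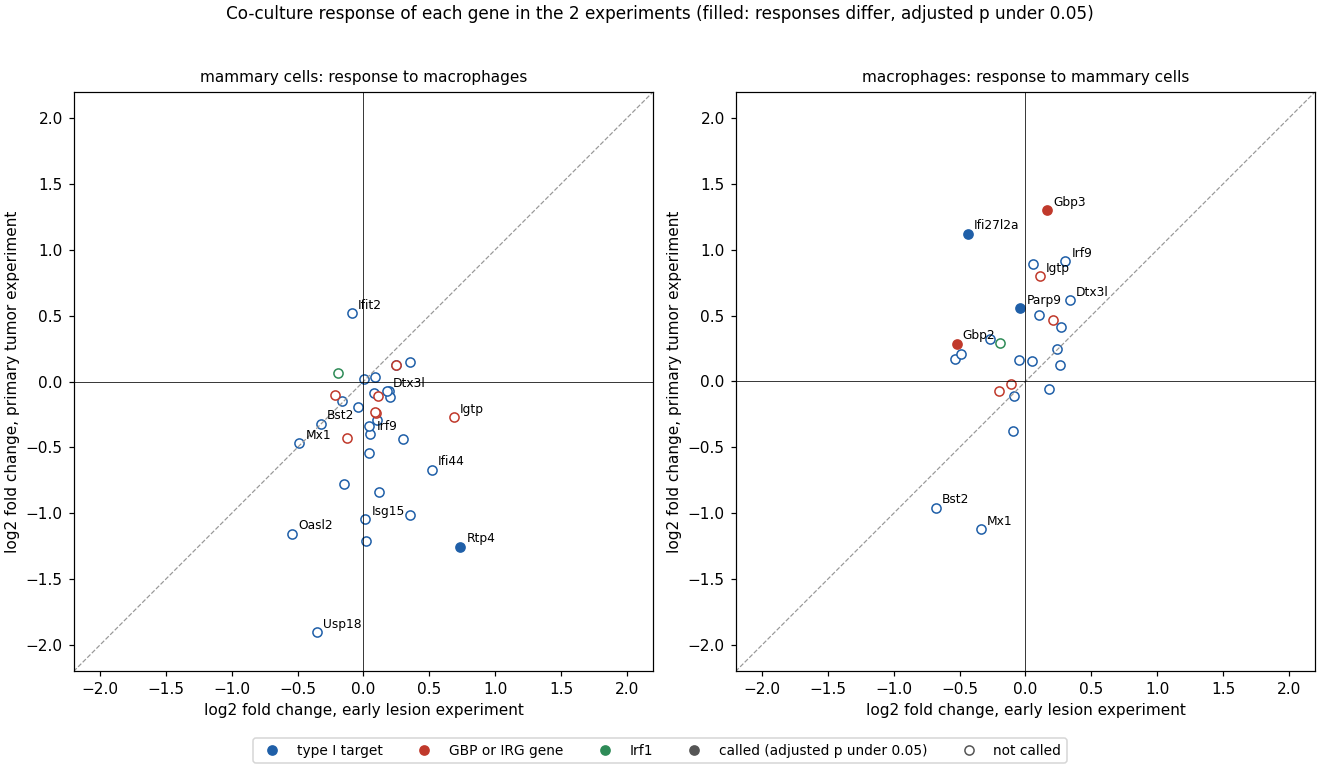
Log2 fold change in co-culture in the early lesion experiment (horizontal) against that in the primary tumor experiment (vertical) for each gene tested in both, in mammary cells (left) and macrophages (right); filled points are genes whose 2 responses differed at an adjusted p of 0.05, and the dashed line marks equal responses. Rtp4 lies lower right in mammary cells (0.73 against -1.25), and Ifi27l2a lies upper left in macrophages (-0.44 against 1.12).

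Type I targets and GBP or IRG genes are set side by side by their own counts, and the difference between the classes carries no test. In early lesion cells 1 of 29 type I targets and 0 of 7 GBP and IRG genes were called, beside 0.510% of all genes. In primary tumor cells 0 of 27 and 0 of 7 were, beside 1.67%, and with the replicate block 8 of 27 and 1 of 7, beside 21.0%. Macrophages with early lesion cells had 7 of 29 and 1 of 7 called, beside 18.3%. Those with primary tumor cells had 8 of 19 and 2 of 6, beside 30.6%. With classes this small, none of these counts is shown to depart from the share of all genes. Type I calls in macrophages ran in both directions with early lesion cells and mostly upward with primary tumor cells.

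Receptor and feedback genes of the pathway were also called in macrophages. Of 10 receptor and JAK-STAT genes tested in macrophages with early lesion cells 1 was higher and 3 lower, and of 9 with primary tumor cells 1 was higher and 4 lower, beside 18.3% and 30.6% of all genes called in either direction. Of the 4 lower with primary tumor cells, Tyk2 was lost without mono-cultured replicate 2 or 3 or co-cultured replicate 1 or 2 (adjusted p up to 0.133) and Il10rb without co-cultured replicate 1 or 3 (up to 0.0725). The subunits of the interferon gamma receptor moved apart. Ifngr1, the ligand-binding chain, had 131 and 121 CPM with early lesion cells against 94.4 and 97.7 CPM alone (0.35 ± 0.07, adjusted p = 0.00341), and 80.9, 126 and 106 CPM with primary tumor cells against 68.9, 45.6 and 45.0 CPM alone (1.01 ± 0.20, adjusted p = 0.0044). Ifngr2, the signalling chain, had 92.4 and 102 CPM against 151 and 154 CPM (-0.69 ± 0.07, adjusted p = 4.65e-05), and 68.6, 74.5 and 60.5 CPM against 164, 169 and 151 CPM (-1.22 ± 0.11, adjusted p = 2.15e-06). Neither chain had overlapping groups in either experiment. Ifnar1 was called lower with primary tumor cells (-0.64 ± 0.17, adjusted p = 0.0119) and Ifnar2 with early lesion cells (-0.28 ± 0.07, adjusted p = 0.0143), calls that were lost without co-cultured replicate 3 and without co-cultured replicate 1 of those experiments (adjusted p = 0.0577 and 0.121).

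Of 6 feedback genes, 2 were higher in macrophages with early lesion cells and 3 with primary tumor cells, beside 9.11% and 15.8% of all genes called higher. Of these, Pias1 with primary tumor cells (0.33 ± 0.10, adjusted p = 0.0244) was lost with DESeq2 (0.088), with no filter on low counts and without mono-cultured replicate 2 or 3 or co-cultured replicate 1 or 3 (up to 0.0943), and Ptpn6 with early lesion cells without replicate 1 of either group (up to 0.113). Socs3, an inhibitor of cytokine receptors that STAT3 induces, had 64.0 and 59.8 CPM with early lesion cells against 14.6 and 16.1 CPM alone (1.97 ± 0.09, adjusted p = 1.5e-07). With primary tumor cells it had 34.2, 37.9 and 38.7 CPM against 11.3, 11.9 and 12.9 CPM (1.64 ± 0.16, adjusted p = 4.6e-06). Socs1, the feedback inhibitor that interferons induce, was not called (-0.77 ± 0.30, adjusted p = 0.0946, and -1.07 ± 0.42, adjusted p = 0.0658).

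Of 15 genes of nucleic acid sensing upstream of interferon, 3 were higher and 4 lower in macrophages with early lesion cells, and 5 were higher and 5 lower with primary tumor cells, beside 18.3% and 30.6% of all genes called in either direction. Without replicate 3 of macrophages with primary tumor cells the 5 higher became 2, as Mavs, Myd88 and Ticam1 were lost (adjusted p up to 0.1). Mavs and Ticam1 each held in 3 of 6 fits without 1 library, and DESeq2 called neither Myd88 (0.055) nor Ticam1 (0.08). Mb21d1, 1 of the 5 lower, held in 2 of 6 such fits and was not called by DESeq2 (0.0794). With early lesion cells Tmem173, 1 of the 3 higher, was lost without any 1 of the 4 libraries (adjusted p up to 0.203). Irf8, a macrophage transcription factor, had 119 and 111 CPM with early lesion cells against 88.0 and 92.2 CPM alone (0.31 ± 0.07, adjusted p = 0.00609), and 76.8, 84.6 and 79.2 CPM with primary tumor cells against 40.7, 43.5 and 58.8 CPM alone (0.78 ± 0.14, adjusted p = 0.00076). Irf5, which drives cytokine genes downstream of Toll-like receptors, had 11.2 and 11.8 CPM with early lesion cells against 19.5 and 17.6 CPM alone (-0.72 ± 0.11, adjusted p = 0.000771), and 4.97, 4.04 and 5.86 CPM with primary tumor cells against 17.9, 29.4 and 22.6 CPM alone (-2.19 ± 0.25, adjusted p = 1.78e-05). Of other GBP, IRG and interferon gamma targets, 3 of 11 tested were higher with early lesion cells and 2 of 6 with primary tumor cells, none lower, beside 9.11% and 15.8% of all genes called higher. Gbp11 had 3.53 and 3.80 CPM against 0.958 and 1.30 CPM (1.64 ± 0.30, adjusted p = 0.00297), and 4.97, 3.03 and 5.15 CPM against 1.15, 0.753 and 0.875 CPM (2.27 ± 0.48, adjusted p = 0.0023), with 19.2% of its 50-base words shared with other genes. In early lesion cells none of these lists had a called gene. In primary tumor cells 1 did, Tlr3 (-0.32 ± 0.06, adjusted p = 0.0435), a call that was lost without any 1 of the 6 libraries (adjusted p up to 0.204). With the replicate block 4 of 10 receptor and JAK-STAT genes, 1 of 6 feedback genes, 5 of 15 sensing genes and 0 of 5 other targets were called in primary tumor cells, beside 21.0% of all genes.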

How the data were processed

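Counts per gene symbol, raw per the labels, were deposited in 1 table for each of the 2 experiments. Per the submitters' processing notes bcl2fastq 2.17 and genome mm10 were used, and RNeasy extraction, oligo-dT selection and NEBNext Ultra kits were used, per the labels' protocols. For aligner, counter, annotation and strandedness, nothing is given in the sources used here. Each comparison was fitted to all genes of the deposited counts with edgeR 4.0.16 in R 4.3.3 (filterByExpr, TMM, robust quasi-likelihood F test, two-sided), with Benjamini-Hochberg adjustment across every gene tested and a threshold of 0.05. Co-culture fits held the 2 groups compared, and differences between responses were interaction terms over 4 groups. Levels are CPM outside mitochondrially encoded genes and Grip2, and SE is the unshrunk log2 fold change divided by the square root of F. Coordinates and shared 50-base words came from the GENCODE annotation of GRCm38, and figures were drawn with matplotlib 3.10.9.

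Alternatives were RLE normalization, no filter, dispersion without robust estimation, DESeq2 1.42.0, a block on replicate number, 1 fit of every group per experiment, no mitochondrially encoded genes or Grip2, exclusion of genes 5 or more times higher in partner cells, and leaving out each library. A crossed block was added after seeing the data. Fits were also run on simulated counts, with an outcome that is not given here. These were drawn independently for each library, so they held no pairing of replicates.

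The 41 genes and all lists were chosen with earlier results of these data known. Values are given per library for called genes (up to 8 type I targets a direction), for Irf1, and, where none was called, for the 4 genes with the smallest p plus Isg15, Irf7, Usp18, Gbp2 and Igtp; other genes with values were chosen after these were seen. The labels give no pairing, but in primary tumor cells residuals of same-numbered libraries with and without macrophages correlated at 0.578, 0.452 and 0.583, over the limit of 0.1, so the numbers were taken to pair those libraries. A gene of the pathway lists is not reported here.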

Additional observations from a re-analysis of the deposited data

Results flagged for a closer look

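For 5 gene responses the early lesion and primary tumor experiments differed in a direct test of the difference between fold changes (edgeR quasi-likelihood interaction term, Benjamini-Hochberg adjusted p over all genes). The mammary part was 1 of 37 genes tested, beside 0.137% of all genes called. The macrophage part was 4 of 35 (11.4%), beside 10.9% of all genes called, a share near the background. In mammary cells the response of Rtp4 to macrophages differed by 1.99 ± 0.30 on the log2 scale (adjusted p = 0.0269), at 0.73 in early lesion cells and -1.25 in primary tumor cells. In macrophages the response of Ifi27l2a differed by -1.55 ± 0.27 (adjusted p = 0.00217), at -0.44 with early lesion cells and 1.12 with primary tumor cells. Gbp3 differed by -1.11 ± 0.28 (adjusted p = 0.0186), Gbp2 by -0.80 ± 0.21 (adjusted p = 0.0207) and Parp9 by -0.58 ± 0.16 (adjusted p = 0.0271). Several of these calls were weak. Rtp4 kept its call in 6 of 12 fits without 1 library. Gbp2 and Parp9 were lost without replicate 3 of macrophages co-cultured with primary tumor cells. Gbp2 was also lost with the replicate block, and Gbp3 with all groups in 1 fit. Stage and experiment cannot be told apart in these differences. For macrophages the mitochondrial share of counts, 65.7 to 78.6% in the primary tumor experiment, moved with the experiment and was higher in co-culture within it. Its part in the differences was not tested. The fit without mitochondrially encoded genes and Grip2 kept all 4 calls. That fit leaves the counts of the other genes as they are, so it cannot show such a part.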

How the results depend on the processing

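Counts of called genes kept within 1.5 times their value under RLE normalization, no filter, dispersion without robust estimation and the fit without mitochondrially encoded genes and Grip2. Unless a share of all genes is named, the counts below stand without the share called in the same fit. That share can move with them, so a changed count is not a result about the interferon-stimulated genes. In early lesion cells the count of 1 became 0 with all groups in 1 fit and 0 to 5 without 1 library. The calls among all genes, 76 in the main fit, ran from 0 to 1612 in those fits without 1 library. In primary tumor cells the count of 0 became 4 with DESeq2, 9 with the replicate block and 1 with all groups in 1 fit. With the block the share of all genes called rose as well, from 1.67% to 21.0%. For macrophages with early lesion cells the count of 8 became 4 with DESeq2, 5 with the replicate block, 4 with all groups in 1 fit, 14 with the block crossed (same-numbered libraries correlated at -0.157) and 4 to 10 without 1 library; with primary tumor cells the 10 calls became 8 to 10 without 1 library. The mammary difference of 1 became 2 with DESeq2, 2 with the block and 0 to 1 without 1 library, and the macrophage difference of 4 became 7 with DESeq2 and 1 to 6 without 1 library. The numbers of the block were taken to pair only primary tumor libraries, a choice that rests on the limit of 0.1. The block ended the call of Gbp2 in the macrophage difference (adjusted p = 0.0556), and of Stat2, Irf9 and Eif2ak2 in macrophages with early lesion cells. Same numbers correlated at 0.402, 0.395 and 0.0762 in early lesion cells, where only replicate 3 was under the limit. In macrophages with primary tumor cells they correlated at -0.0941 to -0.00776. The GBP and IRG median of macrophages against early lesion cells moved to 1.97 with the block and without mono-cultured early lesion replicate 3. Among the 41 genes, none that was called in either fit changed sign under these alternatives, while genes near 0 that were called in neither did, such as Isg15 in early lesion cells (0.0133, and -0.0068 with the block); the cause of each change was not tested. The exclusion of genes 5 or more times higher in partner cells could remove none of the genes called in the co-culture comparisons, so its equal counts carry no information. Against mono-cultured early lesion and primary tumor cells, macrophage calls ran from 25 to 28 and from 23 to 30 without 1 library. Where leaving out a library left 1 in a macrophage group, that library was assumed to vary like the other group. Depth limits the macrophages of the primary tumor experiment most, where 15 of the 41 genes were not tested.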
